A study of Mus musculus with 2 samples.

Results

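The motile cilium genes described here are 41 mouse genes for parts of the beating cilium and for the programme that builds it. They were taken by name from a list, and all 41 are among the 17790 genes of the deposited count table. Motile cilia are hair-like projections that beat in coordination, and in the airway they move mucus along the epithelial surface. Their core, the axoneme, is a ring of paired microtubules around a central pair. Rows of outer and inner dynein arms drive the bending, while radial spokes, the central pair and the nexin-dynein regulatory complex control it. Foxj1, a forkhead transcription factor, acts with RFX factors to switch on the genes of this structure in cells that form motile cilia.

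The cells came from dissected lung adenocarcinomas of C57BL/6 mice, and antibody-coated magnetic beads against CD45, a surface protein of leukocytes, divided them into a CD45-negative and a CD45-positive fraction. Each fraction gave 1 droplet library of 3′ transcript tags, so there was no replicate of either. The CD45-negative library held 3957 cells with 40873786 UMI (unique molecular identifiers, each counted as 1 captured transcript) and the CD45-positive library 11432 cells with 47477407 UMI. That is more cells than the 6000 that the design text gives as loaded in a channel, and how many channels were used is unstated. The tumour model, the number and age of the mice, the meaning of the name LucOS in the cell names and the way the cell classes were assigned are left unstated by the labels.

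In the authors' cell table, cells carry 1 of 7 classes, of which 1 is named Ciliated. That class had 108 cells and 1392095 UMI in the CD45-negative library, with a median of 9270 UMI per cell, and 116 cells and 866297 UMI in the CD45-positive library, with a median of 4852. Across the libraries 57 barcodes occurred in both, of which 1 belonged to a cell of the Ciliated class. Levels are CPM (UMI per 1000000 UMI of the summed cells). A 3′ tag method counts an RNA molecule once whatever its length, so levels were not divided by gene length. All intervals are 95% intervals that cover counting error only. With 1 library per fraction, no difference was tested against variation between samples, and a 2-fold ratio served as the limit for calling a gene higher or lower.

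Promoter windows from 250 bases before to 50 bases after a transcript start were matched for 35 of the 41 members in a RefSeq table of build GRCm38.p6. The letters GTTGCC, an arm of the X-box to which RFX factors bind, were searched on both strands. They occurred in 21 of the 35 genes (60%), against 14.1% of all 27025 genes with a window. A closely spaced pair of arms, GTTGCCNNNCAAC or GTTGCCNNNNCAAC, occurred in 8 of the 35 (22.9%), against 0.477% of all genes. The pair is a subset of the matches to the single arm. The forkhead letters TGTTTAC were in 2 of the 35 (5.71%), Ak7 and Mlf1, against 4.05% of all genes. A match is a description of letters and not a measured binding site, and these motifs were chosen after the data had been seen.

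The following stretches of 40 bases show the 8 paired matches and the stretch of Mlf1 that holds both the RFX and the forkhead letters. Each is read on the strand that shows GTTGCC, which is given after the position, and the matched letters are in capitals.
Ccdc153, chr9:44240508-44240547 (+): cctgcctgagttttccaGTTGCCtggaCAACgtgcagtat
Dynlrb2, chr8:116504947-116504986 (+): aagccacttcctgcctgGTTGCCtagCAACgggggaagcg
1110017D15Rik, chr4:41507760-41507799 (-): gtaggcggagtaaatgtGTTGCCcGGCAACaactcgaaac
Dnaic2, chr11:114727376-114727415 (-): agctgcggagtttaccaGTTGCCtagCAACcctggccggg
Tekt2, chr4:126325688-126325727 (+): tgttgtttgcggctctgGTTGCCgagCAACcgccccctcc
Hydin, chr8:110266947-110266986 (-): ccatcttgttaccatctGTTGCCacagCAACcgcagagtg
Ccdc113, chr8:95534077-95534116 (-): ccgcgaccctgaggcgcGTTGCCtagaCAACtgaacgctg
Lrrc23, chr6:124779744-124779783 (-): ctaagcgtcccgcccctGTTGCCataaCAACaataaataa
Mlf1, chr3:67373975-67374014 (+): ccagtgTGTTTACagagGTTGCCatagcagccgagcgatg

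In 7 of the 8 paired genes the arm lay within 100 bases before an annotated start, namely at -51 in Dynlrb2, -26 in Dnaic2, -22 in Tekt2, -13 in Hydin, -6 in Ccdc113, -39 in Lrrc23 and -18 in 1110017D15Rik, where Tekt2 is given for the nearest of its starts. In Ccdc153 it lay at -152. The windows of members held 31 matches to the single arm, where a site in overlapping windows, as in Tekt2, counts more than once. Of these matches, which include the paired ones, 74.2% fell after base 150 of the window, that is, toward the start. The share was 53.8% of the matches in all genes. Other cilium genes held the single arm at nominally lower shares than the members, with 42.1% of intraflagellar transport genes, 33.3% of BBSome genes, 38.9% of further dynein arm genes and 43.5% of further spoke, central pair and linker genes. With only the first listed window of each gene the members were at 54.3%, and these lists were unchanged. No intervals were taken for these small lists, so the differences from the members are not resolved. The pair was in 1 of 19, 0 of 9, 1 of 18 and 2 of 23 of these lists.

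Fam183b, whose window has 2 single matches, and Dynlrb2 are given with the whole 300-base window, on the strand of the gene, to show where the arms sit relative to the start, which follows base 250.
Fam183b, chr11:58801911-58802210 (-): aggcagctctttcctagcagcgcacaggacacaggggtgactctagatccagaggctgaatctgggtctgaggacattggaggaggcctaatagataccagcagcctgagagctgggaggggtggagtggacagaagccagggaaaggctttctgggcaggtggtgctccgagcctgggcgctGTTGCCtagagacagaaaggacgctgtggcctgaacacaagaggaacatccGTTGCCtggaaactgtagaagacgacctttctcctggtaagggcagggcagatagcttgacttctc
Dynlrb2, chr8:116504765-116505064 (+): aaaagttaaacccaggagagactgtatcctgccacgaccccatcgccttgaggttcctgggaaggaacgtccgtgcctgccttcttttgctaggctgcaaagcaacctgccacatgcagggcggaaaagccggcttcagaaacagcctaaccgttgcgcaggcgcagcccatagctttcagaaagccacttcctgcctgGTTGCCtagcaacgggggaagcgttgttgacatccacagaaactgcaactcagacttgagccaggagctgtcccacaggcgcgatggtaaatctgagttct
The 41 genes lie on 17 chromosomes, with at most 8 on any one, so they are not a cluster of neighbours.

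In both libraries the 41 genes were concentrated in the Ciliated class. Their summed level there reached 16297 CPM (16086 to 16510) among the CD45-negative cells and 13613 CPM (13369 to 13861) among the CD45-positive cells. In the Immune class, which should lack motile cilia and serves as the background, the sum was 157 and 134 CPM. It was 227 and 196 CPM in AT2 cells, the surfactant-producing cells of the alveolus, and 92.3 and 63.4 CPM in AT1 cells, which form its thin wall. The Endothelial class had 293 and 236 CPM, the Fibroblast class 275 and 135 CPM and the Erythrocyte class 50.5 and 41.9 CPM. Tppp3 alone made up much of these sums. Without it the Endothelial class kept 524 of 2892 and 362 of 2129 member UMI. The Immune class kept 50 of 161 and 1086 of 3692, and the Fibroblast class 718 of 943 and 64 of 125. A cell of the Ciliated class had UMI of a median of 31 members (CD45-negative) or 22 members (CD45-positive), and a cell of any other class of 0 or 1.

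All 41 members were at least 10-fold higher in the Ciliated class than in the other cells of the same library, in each library. Of all genes with at least 20 UMI, 4.29% (CD45-negative) and 4.68% (CD45-positive) were so, and 14.1% and 17.7% were at least 2-fold higher. The median ratio of the members was 252 and 346, beside 0.864 and 1.0 for all genes. Ratios ran from 16.5 in Dnaic1 to 589 in Ccdc153 in the CD45-negative library, and from 23.2 in Mns1 to 3847 in Spag17 in the CD45-positive library, where Spag17 had 2 UMI outside the class and the interval reached from 1046 to 32072. These sizes depend on which cells enter. Without the cells outside the class that had at least 10 members, described further on, the highest CD45-negative ratio was 2857 (Hydin, 477 with them) and the median 304. Without Ciliated-class cells rich in Scgb1a1 the median was 386, and with the Immune level subtracted 477, with 41 of 41 still past 10-fold each time. Removing cells outside the class for their members, or subtracting the Immune level, raises such ratios by construction. The counts under these settings are therefore no added support. Because the classes may have been drawn with these genes, this comparison describes the class and is no independent support for it. Of each member's UMI in a library, a median of 89.9% (CD45-negative) and 86.5% (CD45-positive) came from the Ciliated class.

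**Figure D1:**
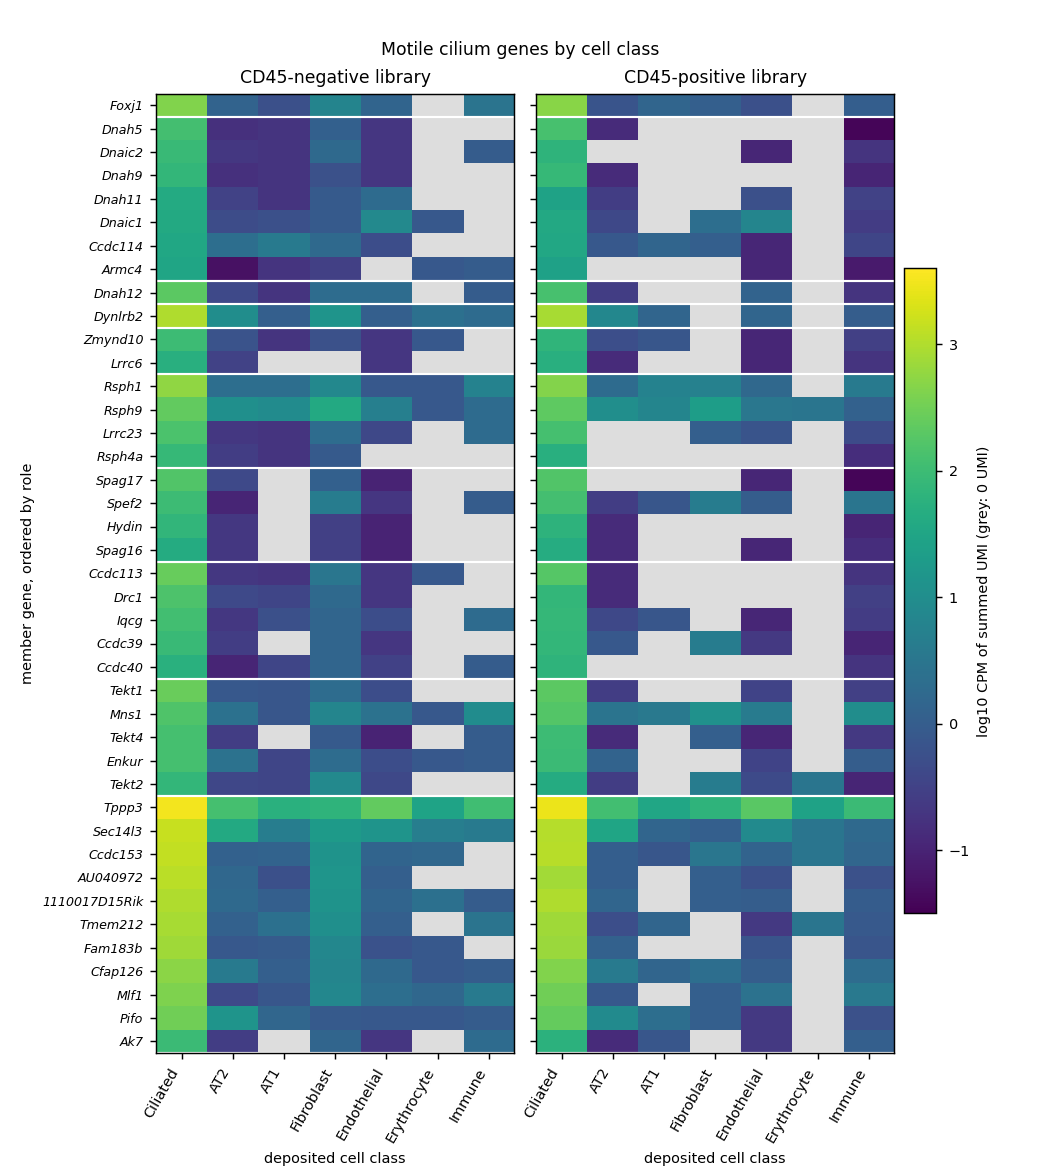
Levels of the 41 members (rows, ordered by role) in each deposited class (columns) of both libraries, as colour on a log10 CPM scale, with grey for 0 UMI. The Ciliated column is the brightest in every row, and Tppp3 is the member with the broadest signal elsewhere, at 240 and 196 CPM in the Endothelial class.

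Foxj1, the regulator of the set, was at 437 CPM (403 to 473) in the Ciliated class of the CD45-negative cells and 496 CPM (451 to 546) in that of the CD45-positive ones. The next highest class was Fibroblast in the first at 6.42 CPM and AT1 in the second at 1.47 CPM, and the Immune class had 2.92 and 1.05 CPM. Of its UMI, 90.1% and 91.1% were in the Ciliated class. Its transcript was detected in 82 of 108 (75.9%) and 75 of 116 cells (64.7%) of that class.

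The outer dynein arm genes were among the lowest members. Their median level was 41.7 and 38.1 CPM. The heavy chain Dnah5, a motor subunit, had 121 CPM (104 to 141) and 130 CPM (108 to 157), Dnah9 had 76.9 and 83.1 CPM, and Dnah11 had 41.7 and 27.7 CPM. The intermediate chains Dnaic1 and Dnaic2, which join the motors to the microtubule, stood at 40.2 and 38.1 CPM and at 90.5 and 64.6 CPM. Ccdc114, of the complex that docks the arm, had 34.5 and 35.8 CPM, and Armc4, another docking factor, had 30.9 and 26.5 CPM, the lowest of the 41 in both libraries. The intervals of Armc4, Ccdc114, Dnaic1 and Dnah11 overlap each other in each library, so their order is not resolved. Armc4 was detected in 24.1% and 14.7% of Ciliated-class cells, the smallest shares of any member.

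Dnah12, an inner-arm heavy chain, had 207 CPM (184 to 232) and 128 CPM (105 to 154). Dynlrb2, a light chain of the roadblock family, reached 961 and 848 CPM, and its paralog Dynlrb1, which serves cytoplasmic dynein, gave a different pattern. Dynlrb1 was at 232 CPM in the Ciliated class against 296 in the other cells of the CD45-negative library (ratio 0.784, 0.700 to 0.875), and at 272 against 263 CPM in the CD45-positive library (1.03, 0.905 to 1.18). Zmynd10 and Lrrc6, which help to assemble dynein arms in the cytoplasm before they enter the cilium, had 99.8 and 68.1 CPM and 51.0 and 51.9 CPM.

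Among the radial spoke genes, Rsph1 of the spoke head was highest at 564 and 443 CPM. Rsph9 had 241 and 215 CPM, Lrrc23 145 and 126 CPM, and Rsph4a 83.3 and 51.9 CPM. Of the central pair genes, Spag17 was at 166 and 165 CPM, Spef2 at 97.7 and 121 CPM, Hydin at 72.6 and 63.5 CPM and Spag16 at 43.8 and 46.2 CPM. Of the ruler and nexin-dynein regulatory genes, Ccdc39 and Ccdc40, which together set the spacing along the axoneme, were at 89.1 and 76.2 CPM and at 53.9 and 67.0 CPM. Drc1 and Iqcg of the regulatory complex were at 152 and 76.2 CPM and at 114 and 77.3 CPM, and Ccdc113 was at 257 and 179 CPM. The tektins, filament proteins that stabilise the microtubule pairs, were led by Tekt1 at 271 and 209 CPM, ahead of Tekt4 at 124 and 97 and Tekt2 at 74.7 and 43.9 CPM. Mns1 and Enkur, proteins inside the microtubules, had 159 and 173 CPM and 124 and 95.8 CPM.

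The highest members were among 11 that were left without an assigned axonemal part in this description. Dynlrb2, at 961 and 848 CPM, lay among them in level. Tppp3, a tubulin-binding protein, led with 3308 CPM (3213 to 3405) and 2822 CPM (2712 to 2936), above every other member in both libraries without overlap of intervals. Sec14l3, a lipid-binding protein, had 1510 and 1079 CPM, and Ccdc153 had 1343 and 1149 CPM. The intervals of these last genes overlap in the CD45-positive library. AU040972 followed with 1175 and 771 CPM, 1110017D15Rik with 997 CPM in both, Tmem212 with 861 and 739 CPM and Fam183b with 748 and 678 CPM. Cfap126 had 524 and 425 CPM, Mlf1 405 and 314 CPM, Pifo 308 and 253 CPM and Ak7, an adenylate kinase of cilia, 94.8 and 61.2 CPM.

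The number of members per cell split the Ciliated class. In the CD45-negative library 82 of 108 cells had 20 to 41 members with a UMI (median 33), 24 cells had at most 2, 2 cells had 3 or 4, and no cell lay between these and 20. Among the 116 cells of the CD45-positive class, 92 had 10 to 40 (median 25), 15 had 3 to 9 and 9 had at most 2. Cells with at least 10 members made up 75.9% (66.7 to 83.6) and 79.3% (70.8 to 86.3) of the class. In the Immune class there were 0 of 108 cells and 0 of 7438 cells. By the limit of 3 counts the first allows a share of up to 2.78%, and its Clopper-Pearson interval reaches 3.36%. After thinning every cell to 1000 UMI the share in the Ciliated class was 61.1% and 50%, and at 2000 UMI it was 70.4% and 64.7%. No cell of either library was shallower than these numbers.

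The cells with few members went against the name of the class. In the CD45-negative library the 24 cells with at most 2 members had a summed member level of 324 CPM, against 20555 CPM in the 82 cells with at least 10, at median depths of 7417 and 9612 UMI. Scgb1a1, the main secretory protein of club cells, made up 56.7% of all their UMI. Scgb3a1, a secretoglobin of secretory airway cells, was at 5913 CPM against 3.64 CPM in the cells with at least 10 members (ratio 1625, 633 to 5974). Bpifa1 and Bpifb1, secreted airway defence proteins, had no UMI in the 82 cells and, with these set to 3 counts, were higher by at least 380-fold and by at least 176-fold. Goblet cell markers summed to 1696 CPM against 16.4 CPM, with 5 of 6 markers detected. Of 4 basal cell markers only 2 had a row in the count table, and these were at 0 in all cells of the class. The 9 CD45-positive cells with at most 2 members had 195 CPM of members and 48.4% of their summed UMI in Scgb1a1. The share in single cells ran from 3.17% to 64.7%, with a median of 34.3%. Scgb3a1 was not clearly higher in these 9 cells, at 135 CPM against 62.3 CPM in the cells with at least 10 members. The ratio of the latter over the former was 0.461 (0.222 to 1.07), an interval that includes 1. Of 4 neuroendocrine markers 2 had a row in the count table, Calca and Resp18. These had 33 and 27 UMI in the 9 cells and 0 in the cells of the class with at least 10 members. The UMI are sums, and how many of the 9 cells held them is not given here. Of the 15 cells with 3 to 9 members in that library, 8 had at least 10% of their UMI from Scgb1a1 and 7 had under 1%. Those 7 had 6 to 9 members and 2312 to 3524 UMI, below the class median depth of 4852. In what follows the cells with at least 10 members are given separately where it matters.

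**Figure D2:**
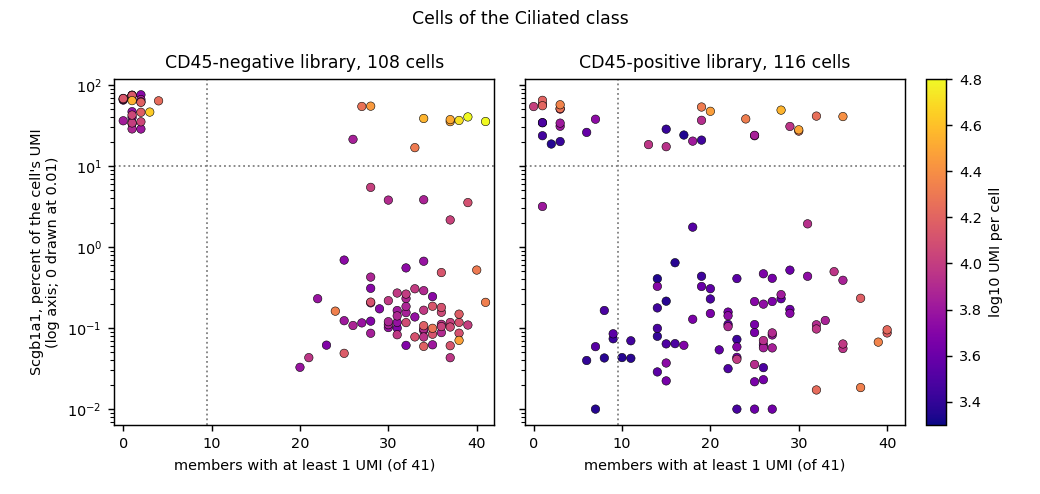
Each point is a cell of the Ciliated class, with the number of members that have a UMI on the x axis and the percent of the cell's UMI from Scgb1a1 on the y axis (log axis, 0 drawn at 0.01), by library, coloured by the log10 of its UMI. The dotted lines mark 10 members and 10%. The CD45-negative cells leave a gap between 4 and 20 members, and its cells with at most 2 members lie high on the Scgb1a1 axis, with a median of 63.1%, while 7 of the 15 CD45-positive cells with 3 to 9 members lie under 1%.

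Within the cells with at least 10 members, Scgb1a1 had a divided distribution. Its median share of a cell's UMI was 0.156% (CD45-negative) and 0.147% (CD45-positive). In the Immune class the median share was 0.0387% and 0.0214%. Of the summed UMI of that class Scgb1a1 made up 0.0400% and 0.0538%, with 4 CD45-positive cells at 10% or more. Among the cells with at least 10 members a minority stood far above. There 10 of 82 cells (12.2%, 6.01 to 21.3) and 18 of 92 (19.6%, 12 to 29.1) had at least 10% of their UMI from Scgb1a1. Their shares ran from 16.9% to 54.8% and from 17.3% to 53.5%. These 10 cells had 26 to 41 members each and a median depth of 31880 UMI, against 8998 in the other 72. Their summed member level was 9377 CPM, or 15161 CPM with Scgb1a1 left out of the total, against 26660 CPM in the others. The 18 CD45-positive cells had a median depth of 9206 UMI against 4609 in the other 74, and 6879 CPM of members (10925 without Scgb1a1) against 22089. Whether such a barcode holds more than 1 cell was not tested, and no doublet caller was run. The 10% limit was chosen after the data had been seen.

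The members were detected together. For each gene, the Ciliated-class cells were divided by the number of the other members, leaving the gene itself out. In the CD45-negative library the share of cells with a UMI ran from 31.7% (Armc4) to 100%, with a median of 81.7%, among cells with at least 10 of the others. Tppp3, Ccdc153, Dynlrb2, Rsph1, Tmem212, Sec14l3 and 1110017D15Rik were detected in all 82 such cells. Among cells with at most 2 of the others, 34 of the 41 genes had 0 cells. Foxj1 was in 98.8% (93.4 to 100) of the former and in 4.17% (0.105 to 21.1) of the latter. The intervals of the groups of cells did not overlap for 41 of 41 genes. The same count was not made over all genes, so no background stands beside it in either library. The cells with few members were rich in Scgb1a1, and other genes that differ between such cells would separate too. In the shallower CD45-positive library the median share was 55.4%, from 17.4% (Armc4) to 98.9%, with 28 genes at 0 in the cells with at most 2 of the others, and the intervals did not overlap for 25 of 41. Foxj1 was in 79.1% (69.3 to 86.9) and in 0 of 9 cells there. The interval of 0 of 9 cells reaches 33.6%, so members seen in few of the other cells could not separate in that library.

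Sec14l3 was the exception among the cells with few members. It was detected in 14 of 25 such cells (56%, 34.9 to 75.6) of the CD45-negative library, at 243 CPM (189 to 309), and in 8 of 15 (53.3%, 26.6 to 78.7) of the CD45-positive library, at 314 CPM (226 to 426). In cells with at least 10 of the other members it had 1850 and 1258 CPM, and in the Immune class 3.89 and 1.74 CPM. Tppp3 was in 20.8% and 50% of the cells with few members, at 30.2 CPM (12.1 to 62.2) and 78.2 CPM (37.5 to 144), where the Immune class had 108 and 94.7 CPM. The second of these intervals includes the Immune-class level. Rsph9 was in 12% and 18.2% of them.

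**Figure D3:**
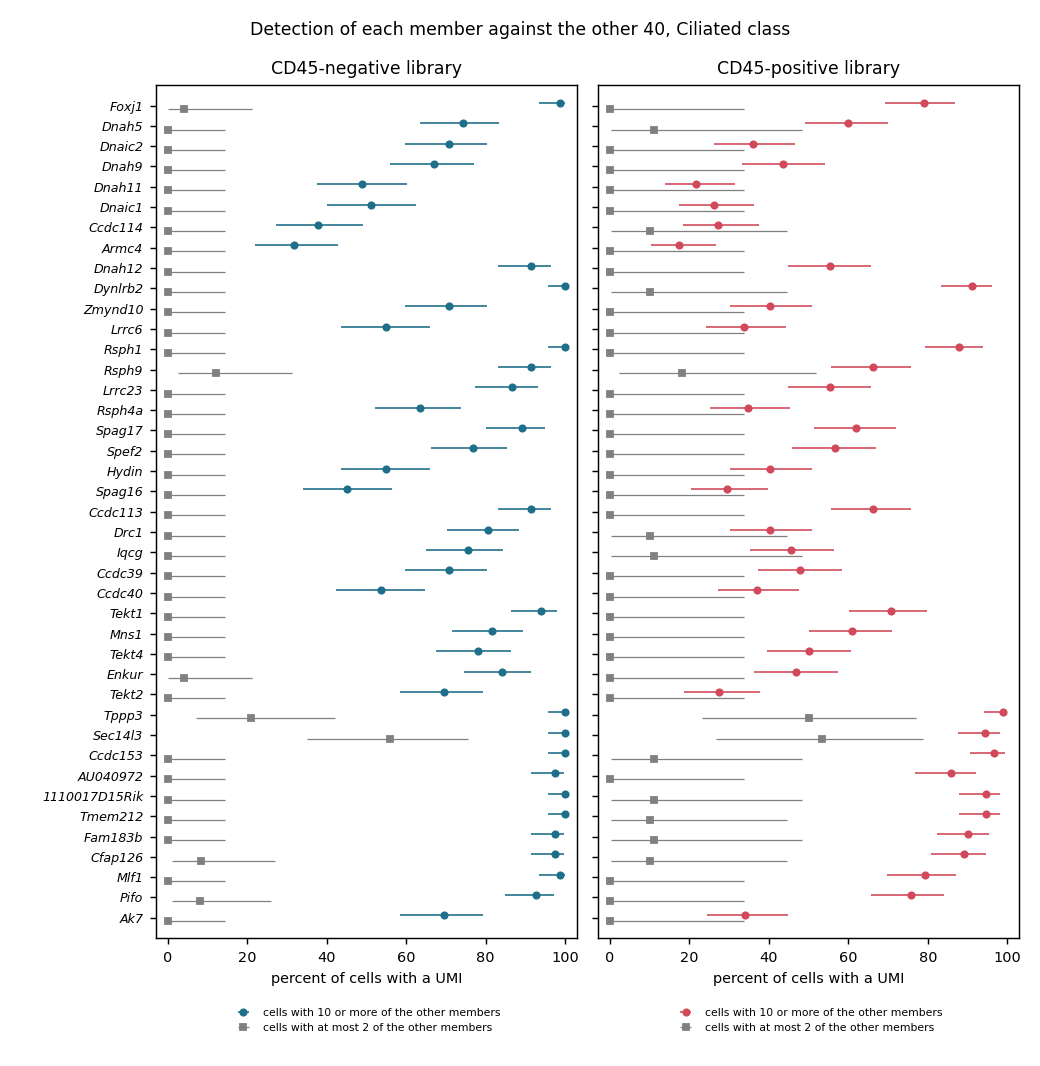
For each member (rows), the percent of Ciliated-class cells with a UMI among cells with at least 10 and at most 2 of the other members, with 95% Clopper-Pearson intervals, in both libraries. Sec14l3 is the gene farthest from 0 in the cells with few members of both libraries, at 56% and 53.3%.

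Co-detection beyond single shares was weaker within the cells with many members than over the whole class. Of the 820 pairs of members, all 820 were found together in more cells of the CD45-negative class than the product of their single shares, with a median of 49.1% against 36.8% of cells. Within the 82 cells with at least 10 members this held for 434 pairs (52.9%). In the CD45-positive library the counts were 819 in the class and 726 (88.5%) within the 92 cells, which include cells of low depth. The median correlation of log-transformed levels over all pairs fell from 0.495 over 108 cells to 0.206 over 82 cells, and from 0.264 over 116 cells to 0.156 over 92 cells. Highly counted genes gave the highest values within those 82 cells, such as Ccdc153 with Fam183b (0.80), Tmem212 with Fam183b (0.80) and Tppp3 with Ccdc153 (0.76). The highest over the 92 cells were Ccdc153 with Tmem212 (0.69) and Tppp3 with Dynlrb2 (0.69). Cells of a library share depth and the share of Scgb1a1, and both enter these correlations.

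Among the 82 cells the per-cell level of the highest members varied more than counting allows. Tppp3 ranged from 433 to 11695 CPM with a coefficient of variation of 0.499, against 0.149 for counting alone. AU040972 was the more uneven, with 0.921 against 0.246. Dnaic1, with few UMI, had 1.27 against 1.29, so that no spread beyond counting was detectable at its depth. The cells rich in Scgb1a1 are among these cells, and their part in the spread was not tested.

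Outside the Ciliated class few cells held many members. There were 7 such cells with at least 10 members, all in the CD45-negative library, with 2 in the AT2 class (11 and 16 members) and 5 in the Fibroblast class (16, 18, 20, 27 and 31). All 5 had UMI of 6 of 6 fibroblast markers, and 3 of them had 2.61 to 4.69 times the median UMI of the class. They held 57.2% of the member UMI of the Fibroblast class, whose median member level was 2.04 CPM with them and 0.600 CPM without them. The Fibroblast class was the next highest class for most members in that library.

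A few members were present elsewhere above the Immune-class background. Tppp3 was at 240 CPM (231 to 250) and 196 CPM in the Endothelial class, against 108 and 94.7 CPM in the Immune class, and only 46.4% and 31.4% of its UMI came from the Ciliated class. Endothelial cells with a UMI of Car4, an enzyme of lung capillary cells, had 275 CPM against 114 CPM without (ratio 2.40, 2.10 to 2.75) in the CD45-negative library. The CD45-positive library gave 253 against 122 CPM (2.08, 1.87 to 2.32). Dnaic1 showed the same split at a low level. It stood at 8.11 and 6.53 CPM in the Endothelial class and at 0 of 108 cells and 0.254 CPM in the Immune class, with Car4 ratios of 2.89 (1.34 to 7.45) and 4.30 (2.10 to 9.96). The cells with Car4 were somewhat deeper, at medians of 6998 against 6100 UMI and 3951 against 3242 UMI. The paralog Tppp did not share the Ciliated-class pattern of Tppp3, with 4.31 against 4.79 CPM in the other cells of the CD45-negative library (ratio 0.900, 0.326 to 2.0) and 5.77 against 3.22 CPM (1.79, 0.574 to 4.28) in the CD45-positive one.

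Sec14l3 was at 40.5 and 31.7 CPM in AT2 cells, against 3.89 and 1.74 CPM in the Immune class. Among AT2 cells of the CD45-negative library it was lower in those with a UMI of Lyz1, a lysozyme, at 17.5 against 51.9 CPM (ratio 0.337, 0.273 to 0.413), while the interval of that ratio included 1 in the CD45-positive library (0.673, 0.343 to 1.2). Pifo (13.8 and 8.60 CPM) and Dynlrb2 (10.0 and 7.12 CPM) were also found in AT2 cells, against 0.972 and 0.581 CPM and 1.94 and 1.02 CPM in the Immune class. Rsph9 was at 38.8 and 21.7 CPM in the Fibroblast class, and Tekt2 at 7.88 and 4.33 CPM. In Immune cells Mns1 was at 9.72 and 9.88 CPM. In the CD45-positive library it had 22.4 CPM in the 960 Immune cells with a UMI of the proliferation genes Mki67 or Top2a and 7.40 CPM in the rest (ratio 3.03, 2.35 to 3.90). Rsph1 there was at 7.35 CPM in Immune cells with a UMI of the B cell gene Cd79a and 1.92 CPM in the rest (3.82, 2.51 to 5.96). These splits were chosen after the data had been seen. For sums over cells, fewer cells with a transcript and less RNA per cell cannot be told apart.

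Between the libraries, members within the Ciliated class stayed within 2-fold, as did most genes. With the CD45-negative level over the CD45-positive level, 0 of 41 passed 2-fold in either direction, where 3.57% of all genes were higher and 5% lower. The median ratio was 1.17, against 1.02 for all genes, and 31 of 41 were above 1. The interval lay above 1 for 20 members and below 1 for Foxj1 alone, at 0.880 (0.776 to 0.998). Of the 8476 genes tested, 4407 had ratios above 1, and 760 intervals lay above 1 and 776 below. Drc1 lay at the limit with 152 against 76.2 CPM (2.0, 1.51 to 2.68), and Tekt2 (1.70, 1.16 to 2.54), Dnah12 (1.61, 1.29 to 2.03) and AU040972 (1.52, 1.39 to 1.67) were among the next. Ccdc40 had the lowest ratio, 0.805. In the cells with at least 10 members 1 of 41 was higher, Drc1 at 2.13, and 0 were lower, where 4.5% of all genes were higher and 4.32% lower. There the median was 1.23 and the interval of Foxj1 included 1 (0.912, 0.804 to 1.03).

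Markers of some other cells moved with this contrast. Others did not: over the whole class 0 of 6 endothelial markers passed 2-fold in either direction (median ratio 1.08), and 1 of 8 club cell markers did. The 6 leukocyte markers, all detected in the CD45-positive class, summed to 40.2 CPM (30.4 to 52.2) among Ciliated-class cells of the CD45-negative fraction and to 1007 CPM (941 to 1076) among those of the CD45-positive fraction, against 3277 and 5455 CPM in the Immune class. Ptprc, which encodes CD45, was in 1 of 108 cells (0.926%) and 44 of 116 cells (37.9%). In the cells with at least 10 members the 8 AT2 markers summed to 19758 and 6183 CPM, near the Immune-class levels of 21826 and 7415 CPM, and the 5 erythroid markers to 7206 and 192 CPM, against 2503 and 1025 CPM in the Immune class. The part of these differences in the member ratios was not tested. The sort, the depth and the library cannot be told apart.

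**Figure D4:**
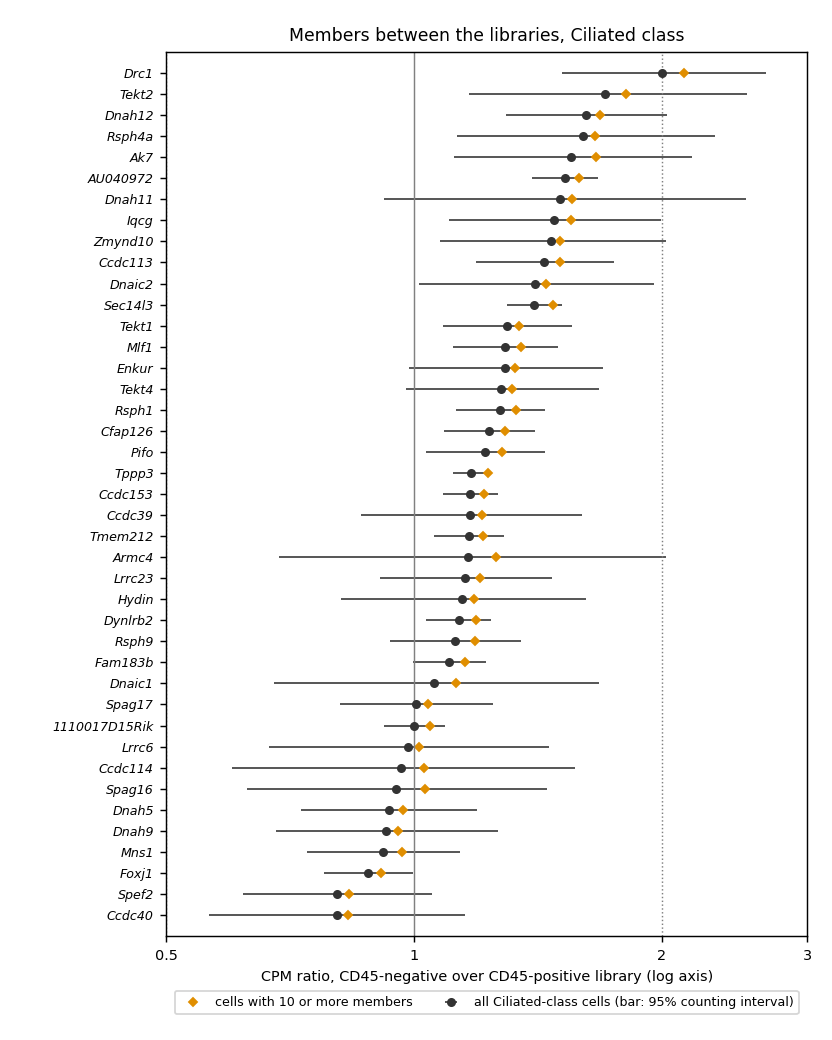
Ratio of each member's CPM in the Ciliated class of the CD45-negative over the CD45-positive library on a log axis, for all cells of the class (black, with exact 95% intervals) and for its cells with at least 10 members (orange). Most black points lie between 1 and the 2-fold line, with Drc1 at 2.0 and Ccdc40 lowest at 0.805.

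The rest of the cilium programme was described with lists of related genes, of which Mcidas, Gmnc, Foxn4, Deup1, Cdc20b, Nme8, Pih1d3 and Tppp2 had no row in the count table used here. Of 6 multiciliation regulators with at least 20 UMI in the CD45-negative library 4 were at least 2-fold higher in the Ciliated class, and of 7 in the CD45-positive library 5 were. Ccno had 8 UMI in the class and 10 outside it in the CD45-negative library, under that limit, and is not in that count. Trp73, a p53-family factor, had ratios of 525 (135 to 4494), with 2 UMI outside the class, and 116 (58.1 to 244). The transcription factor Myb had 259 and 25.9, Rfx2 9.26 and 17.2 and Rfx3 10.4 and 3.67. Ccno had 20.4 in the CD45-positive library. E2f4 was at 0.640 (0.442 to 0.899) and 0.718 (0.459 to 1.07).

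Of 23 further dynein arm genes 22 were at least 2-fold higher in each library, with medians of 79.9 and 87.4. Examples are Dnali1, an inner-arm light chain (267 and 1157), and Dnah7c (851 and 646, with 1 and 2 UMI outside the class and intervals of 141 to 34712 and 160 to 5637). The exception was the heavy chain Dnah8, at 0.281 (0.0910 to 0.661) and 0.469 (0.127 to 1.21). All 30 and all 27 further spoke, central pair and linker genes tested were higher, with medians of 101 and 77.0, among them Cfap53 (226 and 356), Nme5 (105 and 245) and Spag6l (436 and 771).

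Genes that also serve primary cilia had smaller ratios. Of 23 intraflagellar transport genes, which carry cargo along the axoneme, 21 and 23 passed 2-fold, with medians of 6.61 and 8.19. Traf3ip1 was highest in the CD45-negative library (33.3, and 35.2 in the CD45-positive library), Ift172 had 8.36 and 15.2, and Ift20 had 1.58 and 2.08. All 9 BBSome genes in the CD45-negative and 8 of 9 in the CD45-positive library passed, with medians of 6.73 and 8.34. Among 11 tubulins only Tuba1a (4.97 and 6.19) and Tubb4b (5.09 and 7.11) were higher, while 5 and 3 were lower, such as Tubb5 at 0.239 and 0.341, and the medians were 0.630 and 0.720. These lists also followed the division within the class. Intraflagellar transport genes summed to 3202 CPM in cells with at least 10 members and 203 CPM in cells with at most 2 of the CD45-negative library, further spoke genes to 3004 against 25.9 CPM, further dynein genes to 1445 against 30.2 CPM and the regulators to 242 against 21.6 CPM. The lists differ in size and in gene choice, and no list was compared with another by a test.

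**Figure D5:**
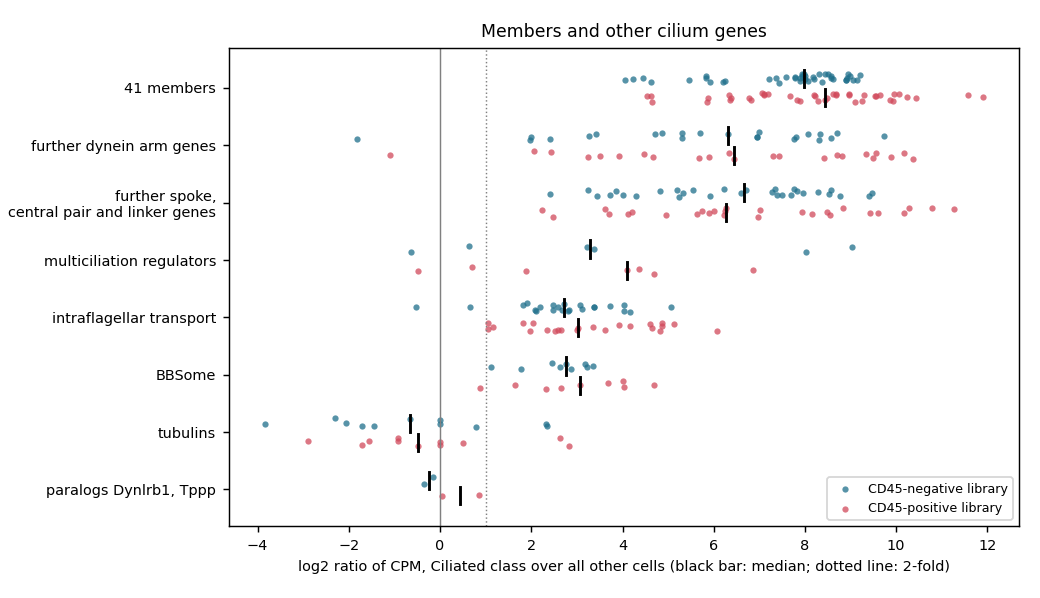
Ratio of CPM in the Ciliated class over the other cells for each gene (points) of the members and of the related lists, as log2, by library, with a black bar at each median and a dotted line at 2-fold. The members have medians of 252 and 346 and intraflagellar transport genes of 6.61 and 8.19, while most tubulins lie near or below 1.

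Other genes had patterns like those of the members. The highest ratios of Ciliated class over other cells in the CD45-negative library among genes outside all lists, with at least 100 UMI in the class, were those of 4833427G06Rik (2482, with 2 UMI outside the class), Fam216b (1432, with 2), Cyp2a5 (1267, with 3), Cfap161 (1208), Fam92b (1078), D430036J16Rik (798), Aoc1 (777), Ldlrad1 (713), 1700024G13Rik (698), Agr3 (640), Fam81b (635), Sntn (622), Meig1 (559), Fank1 (533) and Sox2 (531). Among the highest Pearson correlations with the number of members per cell, over the 108 Ciliated-class cells, were those of Elof1 (0.91), Riiad1 (0.89), 1700016K19Rik (0.88), Gm867 (0.87), Nudc (0.87), Chchd10 (0.87), Cd24a (0.86), 1700007K13Rik (0.86) and Hsp90aa1 (0.86). These cells share 1 library and the division of the class into cells with many and few members, whose part in the correlations was not tested. Of the 50 genes with the highest ratios 14 were members, and 34 members were among the 1861 genes with at least 100 UMI in the class.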

How the data were processed

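The authors deposited 1 table of raw counts (whole-number UMI of a gene in a cell) that holds both libraries, with a cell table that gives the library, the class and totals of each cell. These totals matched the counts in 15389 of 15389 cells. The series' design text states 6000 loaded cells for each channel, reads of 98 bases, and alignment to mm10 and UMI collapsing by Cell Ranger 1.1.0, and the submitters' processing notes list the same tool and build. Settings of that step are unstated. The kit marks 3′ ends, and near-identical paralogs may share reads.

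All deposited cells were kept, with no doublet caller run. UMI were summed per class and library. Intervals (95%, covering counting error only) were exact Poisson for CPM, Clopper-Pearson for shares and exact conditional-binomial for ratios. A side with 0 UMI was set to 3 counts. Genes needed 20 UMI over both sides, and a ratio of 2 counted as a call. There was 1 library per fraction, so no p-value was computed. Correlations are Pearson's r of log(1 + counts per 10000).

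The members and lists were chosen with earlier results of these data known. The named genes are all members, and by rule up to 4 genes per related list with the most UMI in the CD45-negative Ciliated class, those at least 10-fold higher there, the paralogs Dynlrb1 and Tppp, the 15 other genes with the highest ratio and the 10 with the highest correlation, of which 1 is not reported here. From the related lists, genes were picked for mention out of this set or after their values were seen. Promoters came from the RefSeq table and positions from GENCODE M21. Alternatives covered per-cell means, thinning, filters on UMI, other limits on members, subtraction of the Immune level and, added after the data were seen, the handling of Scgb1a1 and of cells outside the class with many members.

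Simulated counts were used as a check of the ratio and its interval. They held counting error only, with no variation between cells or libraries. The shares below are therefore not rates of false calls in the data. In the 3 comparisons (Ciliated over other cells in the CD45-negative library, the same in the CD45-positive library, and between libraries) 2-fold changes were recovered at a median of 1.99, 2.03 and 1.97, and 2.53%, 4.38% and 1.91% of unchanged genes passed 2-fold upward. Computation used scipy 1.17.1, numpy 2.4.6 and pandas 2.3.3 in Python 3.11.15, with figures drawn in matplotlib 3.10.9.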

Additional observations from a re-analysis of the deposited data

How the results depend on the processing

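No paired analysis was possible because each fraction has 1 library and the labels give no replicate numbers. For the same reason no library could be left out. No call of a member turned to the opposite direction under any alternative run, but ratios near 1 between the libraries crossed it: 31 members were above 1, and 34 or 35 were in the per-cell means, without cells with Ptprc, with either handling of Scgb1a1 and without cells above the 95th percentile of UMI. The summed member level in the Ciliated class was 16297 and 13613 CPM. It was 19126 and 15259 as a mean of per-cell levels, 19129 and 14727 without cells above the 95th percentile of UMI, 21040 and 16792 with Scgb1a1 left out of totals, and 26660 and 21062 without cells that have at least 10% of UMI from Scgb1a1. Between the libraries, the count of members with a CD45-negative level at least 2-fold above went from 0 to 1 (Drc1, at the limit) without cells above the 95th percentile, with the Immune level subtracted, with Scgb1a1 left out of totals and without cells rich in it. The share of cells with many members was 61.1% in the CD45-negative library after thinning to 1000 UMI. In the CD45-positive library it was 50% and 64.7% after thinning to 1000 and 2000 UMI, and 87.1% and 70.7% with limits of 5 and 15 members. The share fell with thinning in both libraries, and in the CD45-positive library it also moved with the limit on members. Leaving Scgb1a1 out of totals moved the median log2 ratio of all genes in the CD45-negative library from -0.21 to 0.00. With the Immune level subtracted, 7045 genes instead of 1988 and 9804 instead of 2552 passed 2-fold, which the floor for a subtracted side of 0 brings about by construction. Depth limits single-cell shares of the low members most, as for Armc4.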
